A study of Mus musculus with 8 samples.

Results

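The report is about 10 genes that mark the fibroblasts of the leptomeninges and of the perivascular space, the thin layers of connective tissue that cover the brain and follow its vessels. They are Col1a1, Col1a2, Col3a1, Dcn, Lum, Igf2, Ogn, Slc6a13, Fmod and Islr, taken by symbol from a table of 29442 genes, and all 10 were among the 27612 genes tested. The libraries were made from ventral hippocampal tissue of female C57BL/6 J mice, 6 to 8 weeks old, that had been injected under the skin for 21 days. In the DHEA group (n = 4) the injection held dehydroepiandrosterone, an adrenal androgen precursor, at 30 mg/kg/day, and in the control group (n = 4) it held only the vehicle, sesame oil. The mice had been through behavioral tests before dissection, and each library is bulk RNA of tissue pieces, not of sorted cells. The text that came with the data speaks of 6 tissues, while 8 libraries carry a treatment label, and all 8 were used. Libraries are numbered 1 to 4 within each group, and a number shared by the groups does not pair them. Every direction follows the deposited treatment labels, and DHEA and sesame oil always mean the libraries so labelled. In the study's own table of changed genes the signs are opposite to those the labels give, so the groups may be exchanged and every direction is in doubt. The study's qRT-PCR on additional hippocampal samples, which included Pomc and Avpr1a, gave the directions of its table and not those of the labels. No gene that the treatment fixes by itself was among the data used here. Reads counted on genes ranged from 35748416 to 38038361 in the DHEA libraries and from 31483772 to 35418297 in the sesame oil libraries.

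Fibroblasts of the meninges and of larger vessels secrete the fibrous matrix of the brain's borders, whereas the tissue inside holds little of it. Type I collagen is a triple helix of chains from Col1a1 and Col1a2, and type III collagen, from Col3a1, forms fibrils with it. Decorin (Dcn), lumican (Lum), fibromodulin (Fmod) and osteoglycin (Ogn) are small leucine-rich proteoglycans, several of which bind collagen fibrils and control their width. Igf2 encodes a secreted growth factor, Slc6a13 the transporter GAT2 for GABA and taurine, and Islr a secreted or surface protein with leucine-rich repeats. Some of these genes are not confined to fibroblasts. Dcn is also expressed by some hippocampal neurons, and Igf2 by the epithelium of the choroid plexus.

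Upstream sequence is shown for 4 of the genes whose levels are set against each other further on. The RefSeq promoter table (build GRCm38.p6) held windows for 7 of the 10 genes, 12 windows in all, and the 250 bases before the start site are given 5′ to 3′ in lower case. Capitals mark matches on either strand to any of 4 motifs. The first is the TATA box, searched as TATAAA. Another is the CCAAT box, searched by those letters. The GC box was searched as GGGCGG. The last, searched as AGAACA, is the single repeat of the androgen receptor's response element. The windows are chr6:4505368-4505617 (plus strand) for Col1a2, chr13:49607765-49608014 (plus strand) for Ogn, chr1:134037004-134037253 (plus strand) for Fmod and, of the 4 windows of Igf2, the one farthest downstream, chr7:142657497-142657746 (minus strand).
Col1a2: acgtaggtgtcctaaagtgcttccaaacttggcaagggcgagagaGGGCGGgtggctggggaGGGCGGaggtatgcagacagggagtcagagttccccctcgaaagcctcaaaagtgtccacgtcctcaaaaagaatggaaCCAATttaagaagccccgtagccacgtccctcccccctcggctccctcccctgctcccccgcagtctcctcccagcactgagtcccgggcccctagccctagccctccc
Ogn: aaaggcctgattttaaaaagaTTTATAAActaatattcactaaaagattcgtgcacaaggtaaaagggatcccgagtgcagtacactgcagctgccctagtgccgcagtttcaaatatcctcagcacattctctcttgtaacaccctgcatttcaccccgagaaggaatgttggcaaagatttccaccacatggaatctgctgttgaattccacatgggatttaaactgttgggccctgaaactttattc
Fmod: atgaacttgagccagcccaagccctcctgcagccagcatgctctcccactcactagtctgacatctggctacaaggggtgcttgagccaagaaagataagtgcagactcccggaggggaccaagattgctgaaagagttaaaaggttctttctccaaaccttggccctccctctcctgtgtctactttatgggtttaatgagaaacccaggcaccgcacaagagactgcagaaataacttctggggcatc
Igf2: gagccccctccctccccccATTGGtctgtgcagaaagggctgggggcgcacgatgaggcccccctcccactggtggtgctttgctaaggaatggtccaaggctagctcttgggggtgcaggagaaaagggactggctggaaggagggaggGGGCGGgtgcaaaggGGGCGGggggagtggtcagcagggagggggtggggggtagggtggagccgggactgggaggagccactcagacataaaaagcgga
The Col1a2 window held a CCAAT match that starts at base -109 from the start site and GC box matches at -205 and -188. In the Ogn window a TATAAA match on each strand overlapped the other, at -229 and -227. The Igf2 window held GC box matches at -100 and -85 and 1 CCAAT match at -231, and in the Fmod window none of the 4 motifs matched. Over the 12 windows of these genes, TATAAA was found in 2, CCAAT in 3, GGGCGG in 4 and AGAACA in 2. Among all 32851 windows of this length the shares were 12.4%, 33.8%, 32.7% and 16.1%. The AGAACA matches were in a window of Islr and in another window of Igf2. These are matches of letters and say nothing of binding.

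The tissue label was checked first, for hippocampus but not for its ventral part. Markers listed as ventral (Cpne7 at 84.3 and Grp at 8.95 FPKM) and as dorsal (Wfs1 at 29.3 and Fibcd1 at 18.8 FPKM) were both present. Hippocampal neuron markers were abundant, with a mean of 105 FPKM (fragments per kilobase of gene, scaled to the library's counted reads) for Neurod6, 44.1 FPKM for Calb1 and 15.2 FPKM for Prox1, the granule cell transcription factor. The 10 fibroblast genes were present in every library. By FPKM, which allows levels to be compared between genes, Igf2 came first at 38.6 ± 14.6 FPKM (SD, n = 8) and Dcn next at 29.8 ± 4.43 FPKM (SD, n = 8). Igf2 was above Dcn in 6 of the 8 libraries only. Dcn was above Ogn in every library, and then Ogn, Fmod, Islr, Slc6a13 and Col1a2 followed with means from 6.76 to 4.37 FPKM. In that stretch no gene was above its neighbour in all 8 libraries (4 of 8 for Ogn over Fmod, 5 of 8 for Slc6a13 over Col1a2). Col1a2 exceeded Lum (mean 3.09 FPKM) in 8 of 8 libraries, Lum exceeded Col1a1 (2.40 FPKM) in 7 of 8, and Col1a1 exceeded Col3a1 (1.30 FPKM) in 8 of 8. Other genes of these fibroblasts were also found. Of a list of 33, every one had reads and 32 had a mean count of at least 10, among them the transcription factors Foxc1 (mean count 256.5) and Tbx18 (148), the retinoic acid enzyme Aldh1a2 (419.5) and the organic anion transporter Slc22a6 (250.6).

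Between the groups no member of the set differed beyond the spread of the libraries. With edgeR's quasi-likelihood test, 0 of the 10 genes had an unadjusted p under 0.05, against 9.31% of all genes tested, and 0 had an adjusted p under 0.05 (Benjamini-Hochberg over all genes). The 10 adjusted p-values ran from 0.625 to 0.984. At an adjusted p under 0.05 the same test called 0 of all genes (percent called 0), with 2571 at an unadjusted p under 0.05, while DESeq2 called 153 at an adjusted p under 0.05 and none of the 10 genes at an unadjusted p under 0.05. In CPM (counts scaled to a common library size after TMM normalization) the groups overlapped in all 10 genes, where 5.04% of all genes had groups that did not overlap. The median log2 fold change of the 10 genes was -0.01, with 5 above 0 (51.2% of all genes were) and 5 below, and that of all genes tested was 0.01. The libraries that lay farthest apart were mostly of the DHEA group. In 9 of the 10 genes the highest and the lowest of the 8 libraries were both DHEA libraries, which held for 28.4% of the 12780 genes whose mean count reached 100. DHEA 1 was the highest library in 7 of the 10 genes (16.9% of those 12780 genes), and DHEA 3 the lowest in 9 of the 10 (12.9%). Both were so in 6 of the 10 genes, as in 3.11% of the 12780. In bulk tissue, fewer fibroblasts and less RNA per fibroblast cannot be told apart.

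**Figure D1:**
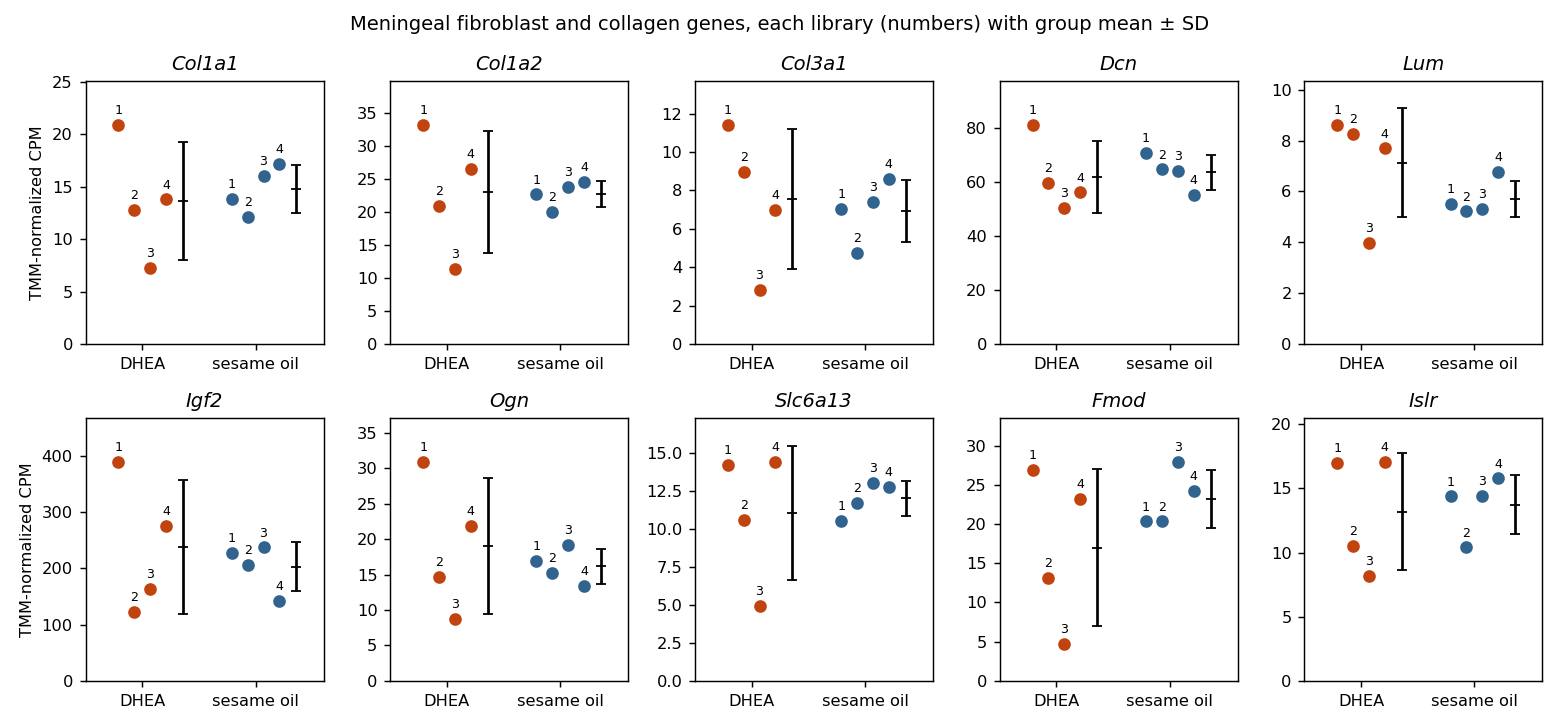
TMM-normalized CPM of the 10 genes (vertical axes, each starting at 0) in the 4 DHEA and 4 sesame oil libraries. Points are libraries with their number, and the bars beside them show the group mean ± SD (n = 4); DHEA 3 is the lowest point in 9 panels and DHEA 1 the highest in 7.

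The fibrillar collagen genes showed this spread clearly. Col1a1 was at 20.9, 12.8, 7.24 and 13.8 CPM in DHEA 1 to 4 and at 13.8, 12.1, 16.1 and 17.2 CPM in sesame oil 1 to 4. Col1a2 was at 33.1, 20.9, 11.4 and 26.4 CPM in DHEA 1 to 4 and at 22.6, 20.0, 23.7 and 24.5 CPM in sesame oil 1 to 4. For both chains DHEA 1 lay above and DHEA 3 below every sesame oil library, so that the sesame oil values fell inside the DHEA range. The mean of Col1a2 was 23.0 ± 9.21 CPM (SD, n = 4) in DHEA and 22.7 ± 1.98 CPM (SD, n = 4) in sesame oil. Its log2 fold change was 0.02 (95% interval -0.41 to 0.44, adjusted p = 0.984, edgeR), and that of Col1a1 was -0.11 (-0.55 to 0.33, adjusted p = 0.865, edgeR). The 2 chains kept nearly the same proportion to each other. The ratio of their FPKM, Col1a1 to Col1a2, lay between 0.459 (DHEA 4) and 0.617 (sesame oil 4) while their CPM differed up to 2.91-fold between libraries. Col3a1 was at 11.4, 8.98, 2.83 and 6.98 CPM in DHEA 1 to 4 and at 7.03, 4.74, 7.39 and 8.60 CPM in sesame oil 1 to 4. Here DHEA 1 was again highest and DHEA 3 lowest, a 4.03-fold range, and DHEA 2 stood above all sesame oil libraries. The log2 fold change of Col3a1 was 0.12 (-0.47 to 0.71, adjusted p = 0.892, edgeR).

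Among the proteoglycans, Fmod varied most and Dcn least. Fmod was at 26.9, 13.2, 4.69 and 23.2 CPM in DHEA 1 to 4 and at 20.3, 20.3, 28.0 and 24.2 CPM in sesame oil 1 to 4. DHEA 3, with 169 reads, held 20.2% of the sesame oil mean and DHEA 2 was also below every sesame oil library, whereas DHEA 1 and DHEA 4 lay within the sesame oil range. The means were 17.0 ± 10.04 CPM and 23.2 ± 3.65 CPM (SD, n = 4 each), a difference within the spread (exact permutation p = 0.314, two-sided). Fmod's log2 fold change, -0.45 (-1.10 to 0.20), was the lowest of the 10, with an adjusted p of 0.650 (edgeR). Lum was at 8.61, 8.25, 3.99 and 7.69 CPM in DHEA 1 to 4 and at 5.52, 5.21, 5.30 and 6.76 CPM in sesame oil 1 to 4. All DHEA libraries except DHEA 3 exceeded every sesame oil library. The log2 fold change of Lum, 0.32 (-0.09 to 0.74), was the highest of the 10, with an adjusted p of 0.625 (edgeR; exact permutation p = 0.257 on CPM, two-sided). Without DHEA 3, it was 0.52 with an adjusted p of 0.096 (edgeR). The groups then did not overlap (as in 10.7% of all genes in that comparison), which follows from the library left out. Ogn was at 30.9, 14.7, 8.71 and 21.8 CPM in DHEA 1 to 4 and at 16.9, 15.3, 19.2 and 13.4 CPM in sesame oil 1 to 4. Its range of 3.55-fold ran from DHEA 3 to DHEA 1, with the sesame oil libraries between, and its log2 fold change was 0.24 (-0.28 to 0.75, adjusted p = 0.702, edgeR). Dcn lay between 50.4 CPM (DHEA 3) and 81.2 CPM (DHEA 1), a 1.61-fold range and the narrowest of the 10. Its log2 fold change was -0.04 (-0.28 to 0.20, adjusted p = 0.912, edgeR).

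Igf2 followed another order of libraries. It was at 389, 123, 164 and 275 CPM in DHEA 1 to 4 and at 228, 206, 237 and 142 CPM in sesame oil 1 to 4. DHEA 1 was highest, as for most of the genes, but DHEA 2 was lowest and sesame oil 4 was the lowest of its group. The means were 237.8 ± 119.7 CPM and 203.1 ± 43.0 CPM (SD, n = 4 each), with a log2 fold change of 0.23 (-0.28 to 0.73, adjusted p = 0.706, edgeR). Without DHEA 2, the log2 fold change of Igf2 was 0.43 (adjusted p = 0.613, edgeR), and it was the one gene of the 10 with an unadjusted p under 0.05, as had 7.26% of all genes. The same 2 libraries were the poorest in choroid plexus genes. The summed CPM of 12 choroid plexus markers, most of it the thyroxine carrier Ttr, was 102 in DHEA 2 and 535 in sesame oil 4, and lay between 2125 and 4663 in the other 6 libraries, with DHEA 1 highest. Of those markers 10 of 12 were highest in DHEA 1, and none was at 0 in any library: in DHEA 2 the counts were 2154 for Ttr, 27 for Folr1 and 15 for Kcne2. The part of choroid plexus tissue in the Igf2 values was not tested. The collagens did not share that order, since Col1a2 was at 20.9 CPM in DHEA 2, within the sesame oil range, and lowest in DHEA 3, where the choroid plexus sum was 2300.

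**Figure D2:**
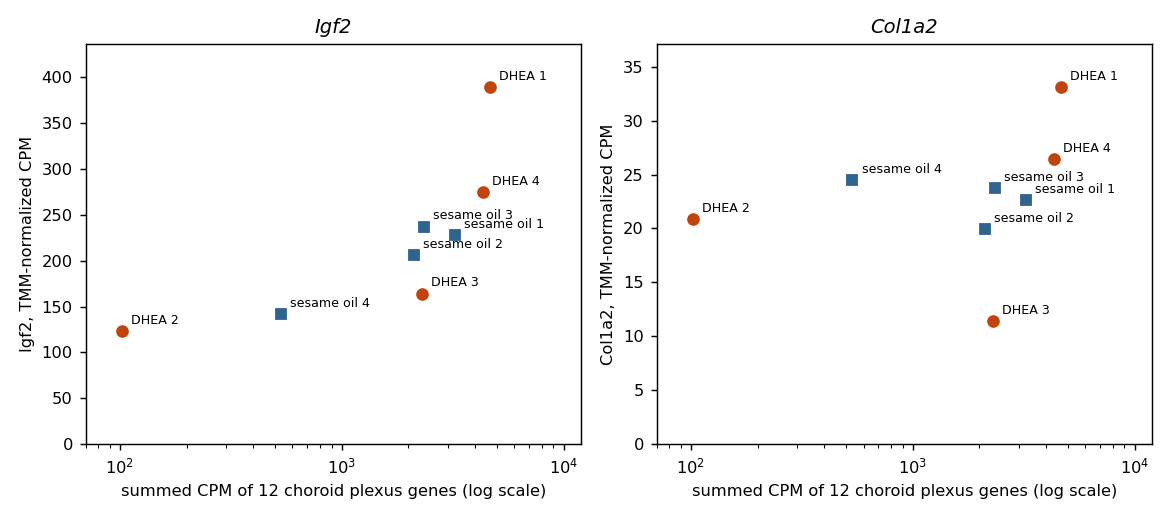
CPM of Igf2 (left) and Col1a2 (right) against the summed CPM of 12 choroid plexus genes (log scale) in each library; circles are DHEA and squares sesame oil libraries. The 2 libraries lowest on the horizontal axis, DHEA 2 and sesame oil 4, are also lowest for Igf2 but not for Col1a2, which is lowest in DHEA 3.

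Slc6a13 and Islr, the remaining pair, also had their lowest level in DHEA 3. Slc6a13 was at 14.2, 10.6, 4.94 and 14.4 CPM in DHEA 1 to 4 and between 10.5 and 13.01 CPM in the sesame oil libraries. Islr ranged from 8.18 CPM (DHEA 3) to 17.1 CPM (DHEA 4), and the sesame oil libraries lay between 10.4 and 15.8 CPM. For both genes DHEA 4 was the highest library by a narrow margin over DHEA 1. The log2 fold changes were -0.12 for Slc6a13 (-0.58 to 0.34, adjusted p = 0.861) and -0.06 for Islr (-0.46 to 0.34, adjusted p = 0.932, both edgeR).

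**Figure D3:**
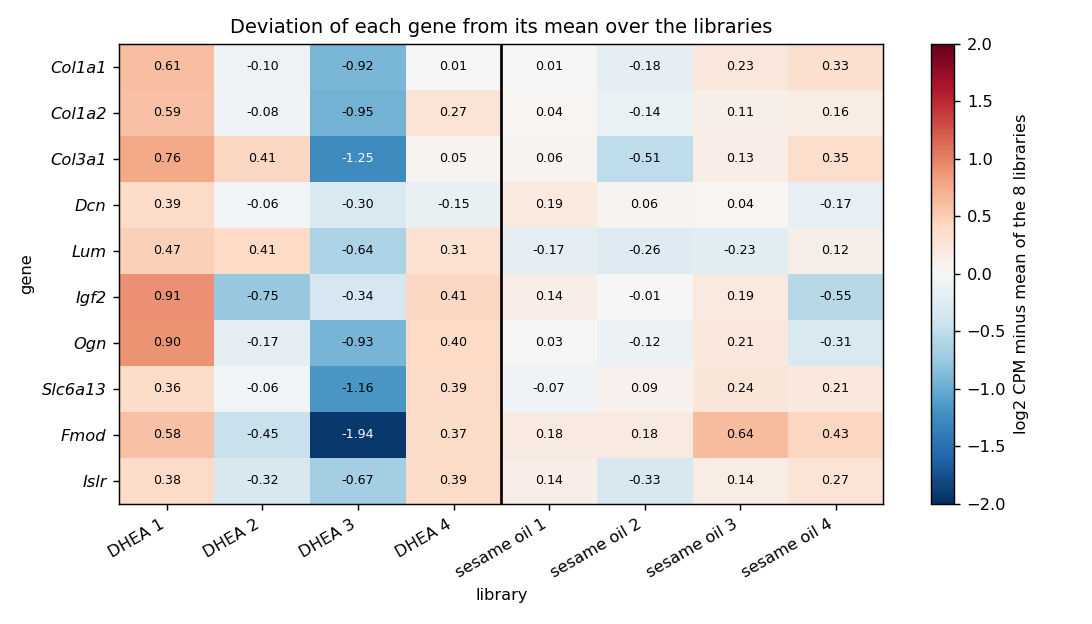
Log2 CPM of each gene (rows) in each library (columns) minus that gene's mean over the 8 libraries; red is above and blue below the mean, and the line separates the groups. DHEA 1 is above the mean in all 10 genes and DHEA 3 below it in all 10, the lowest value being -1.94 for Fmod.

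Across the libraries the 10 genes thus moved largely together, and the sesame oil libraries were closer to each other than the DHEA libraries. The ratio of the highest to the lowest CPM among the 4 sesame oil libraries was 1.23 to 1.81 for the 10 genes, with a median of 1.40. Among the 4 DHEA libraries it was 1.61 to 5.74, with a median of 2.92. For the 12780 genes whose mean count reached 100, those medians were 1.15 and 1.23. The SD of log2 CPM was larger in DHEA for 10 of the 10 genes, and for 70.5% of those 12780 genes. A range over all 8 libraries of at least 1.61-fold, that of Dcn, was found in 17.0% of them, and one of at least 2.92-fold, the median of the 10 genes, in 2.15%. The SD of log2 CPM of Col1a2 was 0.45 over the 8 libraries and 0.05 after the mean of the other 9 genes was subtracted in each library. For Igf2 the same step changed it from 0.54 to 0.47, for Fmod from 0.85 to 0.54, and for Dcn from 0.22 to 0.35, the only one of the 10 genes in which it became larger.

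Ratios between the genes were also computed in each library. The FPKM ratio of Fmod to Ogn was 0.723, 0.744, 0.448 and 0.884 in DHEA 1 to 4 and 1.001, 1.108, 1.211 and 1.505 in sesame oil 1 to 4, so the groups did not overlap. The ratio of Fmod to Col1a2 did not overlap either, with 0.689 to 1.47 in DHEA and 1.503 to 1.97 in sesame oil. Of the 45 ratios between 2 of the 10 genes, 4 did not overlap between the groups, 3 of them with Fmod (over Col1a2, Ogn and Lum) and 1 of Lum to Slc6a13. These ratios share genes, were examined after the values were seen and were not tested, and no share over ratios of other genes was computed. For single genes the share without overlap was 5.04%.

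Leaving out either of the outer DHEA libraries gave most of the set 1 sign. Both were named outer from the values of these same genes, so the direction of each shift follows from that choice. Without DHEA 1, 9 of the 10 log2 fold changes were below 0 with a median of -0.20, and Col1a1 (-0.39), Dcn (-0.20) and Fmod (-0.76) had an unadjusted p under 0.05. Over all genes in that fit, 48.3% were below 0 and 7.08% had such a p. Their adjusted p-values were 0.660, 0.647 and 0.573 (edgeR). Without DHEA 3, 9 of the 10 were above 0 with a median of 0.18, and Col3a1 (0.40), Lum (0.52) and Ogn (0.48) had an unadjusted p under 0.05. Over all genes in that fit, 50.9% were above 0 and 13.4% had such a p. Their adjusted p-values were 0.368, 0.096 and 0.209 (edgeR). Fmod alone stayed below 0 in both fits and Lum alone above 0. Without both libraries, a choice made after the data were seen, the median was 0.03 and Lum, at 0.48, was the one gene of the 10 with an unadjusted p under 0.05 (adjusted p = 0.383, edgeR), as had 8.91% of all genes. Lum was also the one gene of the 10 whose groups did not overlap there, as in 16% of all genes.

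**Figure D4:**
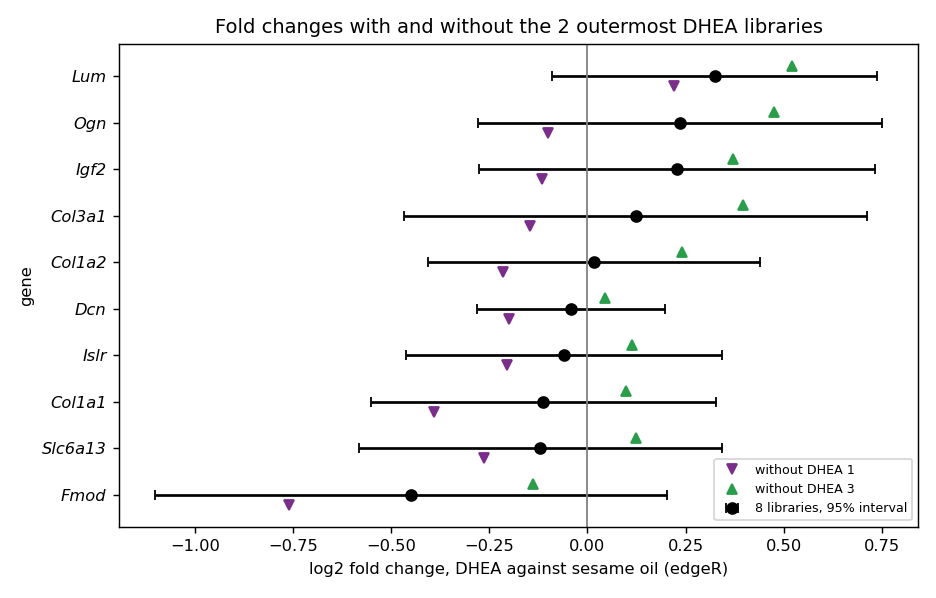
Log2 fold change of each gene, DHEA against sesame oil, from edgeR's quasi-likelihood test on 8 libraries (black, with 95% interval), without DHEA 1 (purple) and without DHEA 3 (green). All 10 intervals cross 0. The estimates without DHEA 3 lie to the right of those without DHEA 1 for each gene, which follows from DHEA 1 being above DHEA 3 in all 10.

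Further fibroblast genes, from a list that does not hold the 10, had the same outer libraries. Of the 23 whose mean count reached 100, DHEA 1 was highest in 17 and DHEA 3 lowest in 17. The 8 genes outside the set whose log2 CPM was most like the mean pattern of the 10 genes were Serping1 (Pearson r = 0.996 over the 8 libraries), Cdh5 (0.974), Csnk2b (0.955), Fgl2 (0.953), Osr1 (0.953), Mrc2 (0.951), Cavin1 (0.950) and Ifit1bl1 (0.947). These were picked among 12780 genes over 8 libraries, so the values describe likeness and carry no test. Serping1, the C1 inhibitor, is on the fibroblast list, Cdh5 (VE-cadherin) on the endothelial list, and Mrc2 encodes a collagen uptake receptor. In all 8 of them DHEA 1 was highest and DHEA 3 lowest, which follows largely from how they were picked. Their ranges over the 8 libraries differed, from 1.26-fold (Csnk2b) and 1.53-fold (Cdh5) to 3.59-fold (Fgl2). Serping1 was at 13.6 CPM in DHEA 1 and at 4.30 CPM in DHEA 3, and Mrc2 at 11.6 and 4.97 CPM. Of the 33 further fibroblast genes, 2 had an unadjusted p under 0.05 and were higher in DHEA (4.82% of all genes did so) and 0 were lower (4.49%). They were Cyp1b1, a cytochrome P450 that acts on steroids and retinoids, with a log2 fold change of 0.51 (adjusted p = 0.363, edgeR), and Dpep1, a dipeptidase with 1 to 28 reads per library (1.48, adjusted p = 0.505, edgeR). The list's median log2 fold change was 0.03. Of the 33, 13 were below 0 with all libraries, 26 without DHEA 1 (48.3% of all genes) and 7 without DHEA 3, where 50.9% of all genes were above 0. With limma-trend 0 of the 33 had an unadjusted p under 0.05, where 2604 (pseudocount 1) and 2605 (0.1) of 27612 genes had one. The most abundant of the list, Ccn3 and Mgp, had log2 fold changes of -0.18 (adjusted p = 0.638) and 0.02 (adjusted p = 0.984, both edgeR), and Ccn3 is also expressed by hippocampal neurons.

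**Figure D5:**
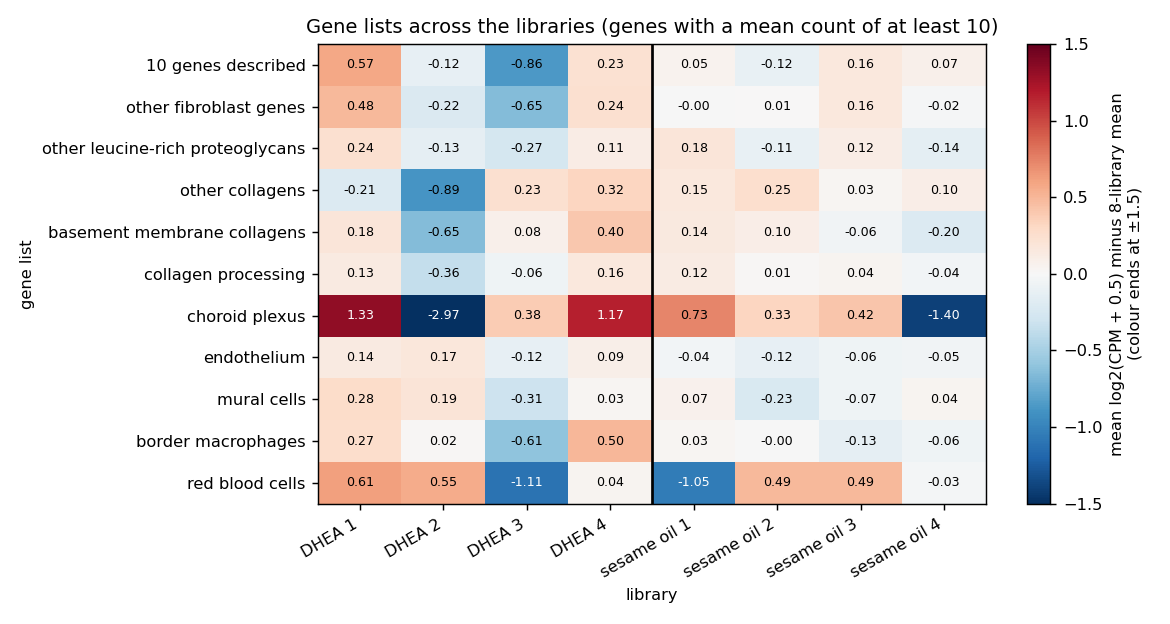
Mean over the genes of each list (rows, using genes whose mean count reached 10) of log2(CPM + 0.5) minus the gene's 8-library mean, per library (columns); the line separates the groups and the colour scale ends at ±1.5. The 10 genes and the other fibroblast genes share their high (DHEA 1) and low (DHEA 3) libraries, while the other collagens are lowest in DHEA 2.

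On average over their lists, other collagens did not follow the 10 genes. In 15 further collagen genes outside the basement membrane DHEA 2 was the lowest library on average, at -0.89 (mean log2 deviation from the 8-library mean), and DHEA 3 was at 0.235. Of these 15, 2 had an unadjusted p under 0.05, both lower in DHEA, against 4.49% of all genes. They were 2 chains of type VI collagen, a beaded filament of the pericellular matrix. Another of its chains, Col6a3, was not lower (log2 fold change 0.18, adjusted p = 0.899, edgeR). Col6a1 was at 24.0 ± 11.7 CPM in DHEA and 37.2 ± 4.15 CPM in sesame oil (SD, n = 4 each; log2 fold change -0.64, adjusted p = 0.412, edgeR). Col6a2 was at 9.16 ± 2.55 and 13.5 ± 1.499 CPM (SD, n = 4 each; log2 fold change -0.56, adjusted p = 0.297, edgeR), without overlap between the groups. The median of the 15 genes was -0.28, beside 0.01 for all genes. DHEA 2 was the library lowest for Col6a1 and Col6a2. Without it, the log2 fold changes were -0.38 for Col6a1 and -0.38 for Col6a2 (adjusted p = 0.505 and 0.404, edgeR) and the median was -0.16. In that fit, added after the data were seen, 2 of the 15 were lower at an unadjusted p under 0.05 (3.28% of all genes). At such a p 2, Col8a1 and Col8a2, were higher (0.81 and 0.85, adjusted p = 0.563 and 0.303, edgeR). In either direction 7.26% of all genes had such a p. Col5a2, the neighbour of Col3a1 on the chromosome and a chain of the type V collagen that nucleates fibrils, had a log2 fold change of -0.42 (adjusted p = 0.532, edgeR) where that of Col3a1 was 0.12. Of 8 basement membrane collagens, 6 had a log2 fold change above 0, and the median was 0.15. At an unadjusted p under 0.05, 1 was lower, Col4a2 (-0.37, adjusted p = 0.339, edgeR), as were 4.49% of all genes. Col4a1 was at -0.07 (adjusted p = 0.828, edgeR). DHEA 2 was again lowest on average (-0.645). Without it the median was 0.32. Col4a2 was then lower (-0.27, adjusted p = 0.563) and Col18a1 higher (0.41, adjusted p = 0.592, both edgeR) at an unadjusted p under 0.05. In either direction 7.26% of all genes had such a p there.

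Of 25 genes for the folding, hydroxylation, trimming and crosslinking of collagen, 4 had an unadjusted p under 0.05, all lower in DHEA (4.49% of all genes), and none had an adjusted p under 0.05. P4ha1 and P4ha2 encode catalytic subunits of prolyl 4-hydroxylase, which the triple helix needs to be stable, and P4ha3, for another, had a log2 fold change of 0.13 (adjusted p = 0.890, edgeR). P4ha1 was at 51.1 ± 2.76 CPM in DHEA and 65.3 ± 8.43 CPM in sesame oil (SD, n = 4 each), without overlap (log2 fold change -0.35, adjusted p = 0.240, edgeR). P4ha2 did not overlap either, with 7.53 ± 1.41 and 9.56 ± 0.229 CPM (SD, n = 4 each; -0.34, adjusted p = 0.458, edgeR). The others were Plod3, a lysyl hydroxylase (-0.28, adjusted p = 0.420), and Adamts2, the protease that removes the aminopropeptide of procollagen (-0.48, adjusted p = 0.407, both edgeR). The collagen chaperone gene Serpinh1 had a log2 fold change of -0.13 (adjusted p = 0.733, edgeR), and the median of the 25 was -0.04. DHEA 2 was the lowest library of the list on average (-0.361, the others between -0.0631 and 0.159) and for P4ha1, P4ha2 and Plod3. Without it, P4ha1 (-0.33, adjusted p = 0.338) and Adamts2 (-0.43, adjusted p = 0.624, both edgeR) were lower at an unadjusted p under 0.05, as were 3.28% of all genes. P4ha2 (-0.23, adjusted p = 0.738) and Plod3 (-0.22, adjusted p = 0.698, both edgeR) no longer had such a p. The 2 genes Pcolce2 and Loxl2 were higher at such a p (adjusted p = 0.410 and 0.512, edgeR). In either direction 7.26% of all genes had one. In that fit Serpinh1 was at -0.06 (adjusted p = 0.927, edgeR) and the median of the 25 was 0.03. Many of these enzymes are expressed by all cells of the tissue, so their levels are not those of fibroblasts alone.

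Relatives and chromosomal neighbours of the 10 genes were examined next. Of 12 other small leucine-rich proteoglycan genes, 1 had an unadjusted p under 0.05, Podn, which was lower in DHEA (-0.50, adjusted p = 0.499, edgeR; 4.49% of all genes were), and the median was 0.06. Without DHEA 2, where Podn was lowest, it had a log2 fold change of -0.33 (adjusted p = 0.770, edgeR) and no such p. The median of the 12 was 0.13 in that fit. Bgn, the close relative of Dcn, was highest in DHEA 1 and lowest in DHEA 3 (38.2 and 18.8 CPM), as were 6 of the 10 genes, but of the 5 genes of its list whose mean count reached 100 it was the only 1 lowest in DHEA 3. Kera and Epyc, which lie beside Lum and Dcn on chromosome 10, had at most 4 and 12 reads in any library, while Aspn and Omd, beside Ogn on chromosome 13, had mean counts of 116 and 54. Prelp, beside Fmod on chromosome 1, had a mean of 11.1 FPKM and a log2 fold change of 0.07 (adjusted p = 0.835, edgeR). A pair of overlapping genes could share reads with members, since the strand used in counting is not given in the sources used here. They are Igf2os, with 15 to 33 reads per library beside 4389 to 14466 for Igf2, and Cenpp, with 11 to 44 reads beside 314 to 1149 for Ogn. Of the 12 genes of the insulin-like growth factor system, Igfbp7, a binding protein of vessel walls, was the 1 with an unadjusted p under 0.05 (0.35, adjusted p = 0.364, edgeR; 4.82% of all genes were higher at such a p), and the receptors Igf1r and Igf2r had log2 fold changes of -0.03 and -0.11. H19, the imprinted neighbour of Igf2, had a mean count of 12.4. Slc6a12, a related transporter gene beside Slc6a13 on chromosome 6, had a mean count of 66.2 and a log2 fold change of -0.06 (adjusted p = 0.9752, edgeR). Islr2, the neural paralog beside Islr on chromosome 9, was more abundant than Islr (15.4 against 5.51 FPKM), with a log2 fold change of -0.09 (adjusted p = 0.666, edgeR).

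Markers of the other cells at the brain's borders were set beside the 10 genes. Over 7 genes of border-associated macrophages, DHEA 3 was lowest (mean log2 deviation -0.61), being the lowest library in 6 of the 7, and DHEA 4 highest (0.50). Their summed level was 7.99 CPM in DHEA 3 and 11.9 to 21.7 CPM in the other libraries, with Mrc1 the most abundant. Mural cell genes (10, with Rgs5 the most abundant) had their lowest sum in DHEA 3 (318 CPM, against 326 to 458 CPM), although only 4 of the 10, Vtn, Acta2, Myh11 and Tagln, were lowest there. Endothelial genes (10, with Cldn5 the most abundant) summed to 346 CPM in DHEA 3, where the other libraries had 333 to 421 CPM. Here too 4 of the 10, Flt1, Cdh5, Tek and Emcn, were lowest in DHEA 3. Of the 12780 genes whose mean count reached 100, 12.9% were. Red blood cell genes (5, with Hbb-bs the most abundant) summed to 45.7 CPM in DHEA 3 and 159 CPM in DHEA 1, but sesame oil 1, whose fibroblast genes were near the mean, had 52.5 CPM. None of the genes of these lists was at 0 in all libraries. The part of dissection, vessels or blood in the levels of the 10 genes was not tested.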

How the data were processed

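RNA-seq libraries (polyA RNA, VAHTS Universal V6 kit, paired-end reads) of 4 DHEA and 4 sesame oil mice were analysed. Low-quality reads were removed by the authors, clean reads were aligned with HISAT2 and counted with HTSeq-count, and the submitters' processing notes add fastp and the build GRCm39. Versions and the annotation are not given in the sources used here. The deposited read counts are raw. The deposited FPKM are, by a check of 25234 genes, these counts over the library total and 1 length per gene, and were used to compare levels between genes.

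Counts were normalized by TMM and tested with edgeR 4.0.16 in R 4.3.3 (quasi-likelihood test, prior count 0.125, genes with at least 1 count, Benjamini-Hochberg over 27612 genes). Intervals are 95% intervals of the edgeR fit. For single genes the CPM of the groups were also compared with an exact permutation test (two-sided, 70 allocations, smallest p 0.0286). Log2 deviations of lists used a pseudocount of 0.5. At these totals 3 counts correspond to 0.0808 to 0.0952 CPM, and no pair of libraries of 1 group was identical. Nothing but the methods says that the libraries are separate mice, so p-values measure the spread between these libraries.

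The genes described and all gene lists were chosen with earlier results of these data known. All 10 genes were described, and of each list the genes with an unadjusted p under 0.05 and the 3 with the highest mean FPKM were to be named; not all of the last are given in the text. Others were named after their values were seen. The 8 most alike genes were ranked by Pearson r with the mean standardized log2(CPM + 0.5) of the 10. As alternatives, RLE factors, DESeq2 1.42.0, a minimum of 10 counts, filterByExpr, robust moderation, limma-trend (limma 3.58.1) with a pseudocount of 1 or 0.1 FPKM, and omission of each library or the 2 deposited later were tried. Omission of DHEA 1 and DHEA 3 together, of DHEA 2 for the collagen and proteoglycan lists and of sesame oil 2 for the pituitary genes, were added after the data were seen. The study's table of changed genes was used for no value. In counts simulated for this comparison (26669 genes, 200 of them changed 2-fold), edgeR recovered 98.5% and also called 63 unchanged genes. The changed genes were drawn from all with a mean count of at least 100, where the median SD of log2(CPM + 0.5) was 0.131. For the 10 genes the SD of log2 CPM was 0.22 (Dcn) to 0.85 (Fmod), so the share recovered does not apply to them. Coordinates are those of the promoter table only, since its build is not that of the counts.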

Additional observations from a re-analysis of the deposited data

How the results depend on the processing

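The count of all genes with an unadjusted p under 0.05 was within 1.5 times its value of 2571 in every alternative. At an adjusted p under 0.05 the count, 0, was 153 with DESeq2, 4 with robust moderation, 38 without the 2 later libraries, 4 without both DHEA 1 and DHEA 3, and 0 to 93 with each library left out (93 without DHEA 3, 12 without DHEA 4). The count of the 10 genes with an unadjusted p under 0.05, 0, was also 0 with DESeq2, RLE, both filters, robust moderation, both limma-trend fits and without the 2 libraries deposited later. It ran from 0 to 3 with each library left out. It was 3 without DHEA 1 (7.08% of all genes), 3 without DHEA 3 (13.4%) and 1, Igf2, without DHEA 2 (7.26%). Without both DHEA 1 and DHEA 3 it was 1 (8.91% of all genes). The count with groups that did not overlap, 0, ran from 0 to 1 (1 without DHEA 3, where 10.7% of all genes did not overlap) and was 1 without both (16% of all genes). Of the 33 other fibroblast genes, 2 had an unadjusted p under 0.05 (9.31% of all genes). With at least 10 counts it was 1 (2310 of 21662 genes) and with filterByExpr 1 (2106 of 16861). With limma-trend it was 0 at a pseudocount of 1 FPKM (2604 of 27612 genes) and 0 at 0.1 FPKM (2605). When single libraries were omitted the count ran from 2 to 7. It was 7 without DHEA 1 (7.08% of all genes) and 6 without DHEA 3 (13.4%). The cause was not tested.

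Only Lum and Fmod kept their sign in every alternative. With each library left out, log2 fold changes ran from -0.39 to 0.10 for Col1a1, -0.21 to 0.24 for Col1a2, -0.15 to 0.40 for Col3a1, -0.20 to 0.045 for Dcn, 0.22 to 0.52 for Lum, -0.12 to 0.43 for Igf2, -0.10 to 0.48 for Ogn, -0.28 to 0.12 for Slc6a13, -0.76 to -0.14 for Fmod and -0.21 to 0.11 for Islr. Col1a2 was also below 0 with limma-trend at a pseudocount of 1 (-0.073) and of 0.1 (-0.11) and without the 2 later libraries (-0.020), and Col3a1 with limma-trend at 0.1 (-0.028). Without both DHEA 1 and DHEA 3, Igf2 was at -0.030, Islr at 0.0062 and Slc6a13 at 0.061, each with the opposite sign. The lowest p of a reversed value was 0.240 (Col1a2 without DHEA 1, unadjusted, edgeR). The mean counts of the 10 genes were 225 to 7743, and the part of depth in these values was not tested.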

Other observations

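In 4 of 10 endothelial genes an unadjusted p was under 0.05, all higher in DHEA, against 4.82% of all genes in that direction. Ly6c1, a surface protein of capillary endothelium, was at 36.6 ± 4.52 CPM in DHEA and 27.2 ± 2.08 CPM in sesame oil (SD, n = 4 each), and Slco1a4, an organic anion and steroid conjugate transporter of the blood-brain barrier, at 78.7 ± 8.10 and 60.6 ± 4.96 CPM. Neither overlapped between the groups, and their adjusted p-values were 0.223 and 0.203 (edgeR). Pecam1 (0.30, adjusted p = 0.343) and Abcb1a (0.24, adjusted p = 0.381) had smaller log2 fold changes. The list did not move as a whole: its median was 0.12, with 6 genes above 0 and 4 below. Those below were Flt1 (-0.056), Cdh5 (-0.023), Emcn (-0.020) and Kdr (-0.018). Of the 10 mural genes 1, Rgs5, was higher at an unadjusted p under 0.05 (0.25, adjusted p = 0.395, edgeR), of the 7 border macrophage genes 1, Mrc1 (0.44, adjusted p = 0.490), and of the 6 ependymal genes 1, Rarres2 (0.38, adjusted p = 0.488).

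Of the 12 choroid plexus genes and the 5 red blood cell genes, 0 had an unadjusted p under 0.05, with median log2 fold changes of 0.44 and 0.08, and 0 of 8 hippocampal and 0 of 3 dorsal hippocampal neuron genes did. Of 6 ventral hippocampal neuron genes, Cpne7 was lower (-0.43, adjusted p = 0.263, edgeR). All 7 myelin genes were higher at an unadjusted p under 0.05 (4.82% of all genes), with a median of 0.39 and adjusted p-values of 0.0647 to 0.410 (edgeR). Sesame oil 3 was lowest in all 7 (mean log2 deviation -0.464) and DHEA 2 highest on average (0.393), while sesame oil 4 (0.0913) was level with DHEA 1 (0.087). The groups did not overlap in 1 of the 7, Mal (5.04% of all genes). Of 8 pituitary genes, 3 were lower at an unadjusted p under 0.05 (4.49% of all genes), Gh, Prl and Pomc, each highest in sesame oil 2. Without that library, a fit added after the data were seen, the log2 fold change of Pomc went from -1.16 to -0.27 (adjusted p = 0.838, edgeR) and Pomc no longer had such a p, whereas Gh, Prl and Chga did (adjusted p = 0.358, 0.191 and 0.650, edgeR). Over all genes in that fit, 2041 of 27291 had such a p. The directions in these paragraphs share the doubt about the labels, and for Pomc the study's qRT-PCR has the opposite direction.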
